A study of Danio rerio with 2 samples.

Results

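The V2b or KA-like neurons described here were single cells that held at least 1 UMI (unique molecular identifier, 1 counted RNA molecule) of the selector genes *gata2a*, *gata3* or *tal1*, at least 1 UMI of the neuronal gene *elavl3* and at least 1 UMI of an inhibitory transmitter gene (*slc6a5*, *slc32a1*, *gad1b* or *gad2*), and no UMI of *en1b*, *dmrt3a* or *lbx1a*, which mark other inhibitory interneurons. The rule chose 104 cells, 39 in library 1 and 65 in library 2, of 8127 cells that passed quality limits and 10596 cells in all. Both libraries held EGFP-positive trunk cells sorted from 48 h zebrafish embryos of a cross between *evx1i232/+;evx2sa140/+* parents that carried the transgene *Tg(evx1:EGFP)SU2*. All genotypes of that cross were pooled and no cell has a genotype label, so wild-type and mutant cells cannot be told apart. No embryo was treated, and the labelled cell type was the V0v spinal interneuron. The transgene drives GAL4-VP16, which switches on UAS:EGFP, so a sorted cell carried EGFP protein and need not have contained *evx1* RNA when it was captured, and the study's methods state that notochord cells can also express it. Library 1 was titled OtherGFP and library 2 AllGFP, terms that are not defined in the sources used here, so a difference between the libraries cannot be told apart from a difference between the sorts.

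V2b neurons are ventral spinal interneurons that arise from the same progenitors as excitatory V2a neurons. They use GABA and glycine and carry the zinc finger factors Gata2 and Gata3 with the basic helix-loop-helix factor Tal1. KA (Kolmer-Agduhr) neurons are GABAergic cells that touch the cerebrospinal fluid of the central canal. In zebrafish they also express these factors, as well as *tal2*, a close relative of *tal1*, and the channel gene *pkd2l1*. V0v neurons, by contrast, are glutamatergic and depend on Evx1 and Evx2 for this, and they were the labelled population of this sort. The study placed cells with *gata2a*, *gata3* or *tal1* in a cluster that it takes to be V0v cells mutant for both *evx* genes. It proposes that such cells had begun to take on other fates. Whether the members of this report derive from V0v cells was not tested.

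The members made up 1.195% (exact 95% interval 0.851 to 1.63) of the cells with an *elavl3* UMI in library 1 and 2.02% (1.56 to 2.57) in library 2, a mean of 1.61% ± 0.583 (SD, n = 2 libraries). These intervals cover counting error only. Library 1 held 18908819 UMIs in 4373 cells and library 2 held 34071583 UMIs in 6223 cells. The 3 cell barcodes that occurred in both libraries were not members. A member held a median of 4015 UMIs in library 1 (range 1002 to 8778) and 4303 in library 2 (2153 to 8664), and the summed members held 164312 and 285753 UMIs. The libraries differed strongly in the heat shock gene *hsp70l*, which stood at 6171 CPM (UMIs of a gene per 1000000 UMIs of the summed cells) in the library 1 members and 101.5 CPM in the library 2 members, and likewise at 5302 and 32.3 CPM in the V0v-like cells. With 1 library of each title, the p-values of the main fit below rest on how far differences between classes varied between these 2 libraries. That spread was estimated jointly over the members and all classes of neuron compared.

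The selector genes chose the members, so their values are a description. *gata2a* was detected in 19 members of library 1 and 48 of library 2, *gata3* in 16 and 42, and *tal1* in 25 and 42. In fibroblast-like cells, which should lack these genes and held medians of 5135 and 5448 UMIs, *gata2a* was detected in 0 and 0.931% of cells, *gata3* in 1.43% and 2.26% and *tal1* in 0 of 822 cells. These were 70 and 752 cells. The rule required a selector UMI, so detection among members cannot be read against this background. Members were 1.195% and 2.02% of the cells with an *elavl3* UMI, which is no higher a share than that of *gata3* in fibroblast-like cells. These shares are not like for like. Members also needed a transmitter UMI and no UMI of *en1b*, *dmrt3a* or *lbx1a*, whereas the fibroblast-like share is detection of *gata3* alone. All of the selector genes were found together in 8 members of library 1 and 22 of library 2, and *tal1* alone in 13 and 5. The members of library 2 therefore carried more selector genes per cell, and 26 of 39 members in library 1 but 20 of 65 in library 2 had a single one. The rule asked for only 1 selector UMI, and 20 members of library 1 and 17 of library 2 stood exactly there. On the other side of the limits, 27 and 27 neurons with a selector UMI lacked an inhibitory transmitter UMI, and 13 and 15 of these had 1 selector UMI. Of these neurons, leaving out 2 in library 1 that held a UMI of another factor, 8 and 8 held a vesicular glutamate transporter gene.

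The members did not form a single expression pattern. Of the 58 members with 2 or 3 selector genes, 44 held *tal2*, compared with 10 of the 46 members with a single selector gene. The split was uneven between libraries. Library 1 gave 13 of the 58 and 26 of the 46, and library 2 gave 45 and 20. Other genes of neurons or of the GATA and TAL network were found in the same cells. *zfpm2b*, which encodes a Friend of GATA cofactor, was detected in 18 of the 58 and 2 of the 46, the basic helix-loop-helix gene *tcf21* in 22 and 8, *islr2*, a leucine-rich repeat membrane protein gene, in 27 and 8, the zinc transporter gene *slc30a2* in 38 and 12, and *calb2a*, which encodes the calcium-binding protein calretinin, in 17 and 0. The opposite held for genes used by other interneurons of this sort. *pax8* was found in 3 of the 58 members with several selector genes and 19 of the 46 with a single one, *pax2a* in 1 and 11, *evx1* in 1 and 16, *evx2* in 3 and 21, and *skor2* in 1 and 7. Within library 1 *pax8* was found in 1 of 13 and 10 of 26, and within library 2 in 2 of 45 and 9 of 20. For *tcf21*, library 1 gave 5 of 13 and 2 of 26, and library 2 gave 17 of 45 and 6 of 20. For *islr2* these counts were 5 and 6 in library 1 and 22 and 2 in library 2, and for *slc30a2* 7 and 6, and 31 and 6. The *skor2* cells came mostly from library 1, with 1 of 13 and 6 of 26, beside 0 of 45 and 1 of 20 in library 2. In fibroblast-like cells *tal2* was found in 0 and 0.133% of cells and *evx2* in 0 and 0.665%. *tal2* and *evx2* were seen together in 1 member of 104. Members with 1, 2 and 3 selector genes (26, 5 and 8 cells) had medians of 4022.5, 3732 and 4175.5 UMIs in library 1. In library 2 (20, 23 and 22 cells) the medians were 5031.5, 3790 and 4538 UMIs. These counts describe single cells of 2 libraries that were split by measured genes and carry no test. Whether free RNA gave some of the single selector UMIs, or depth had a part in this split, was not tested.

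**Figure D1:**
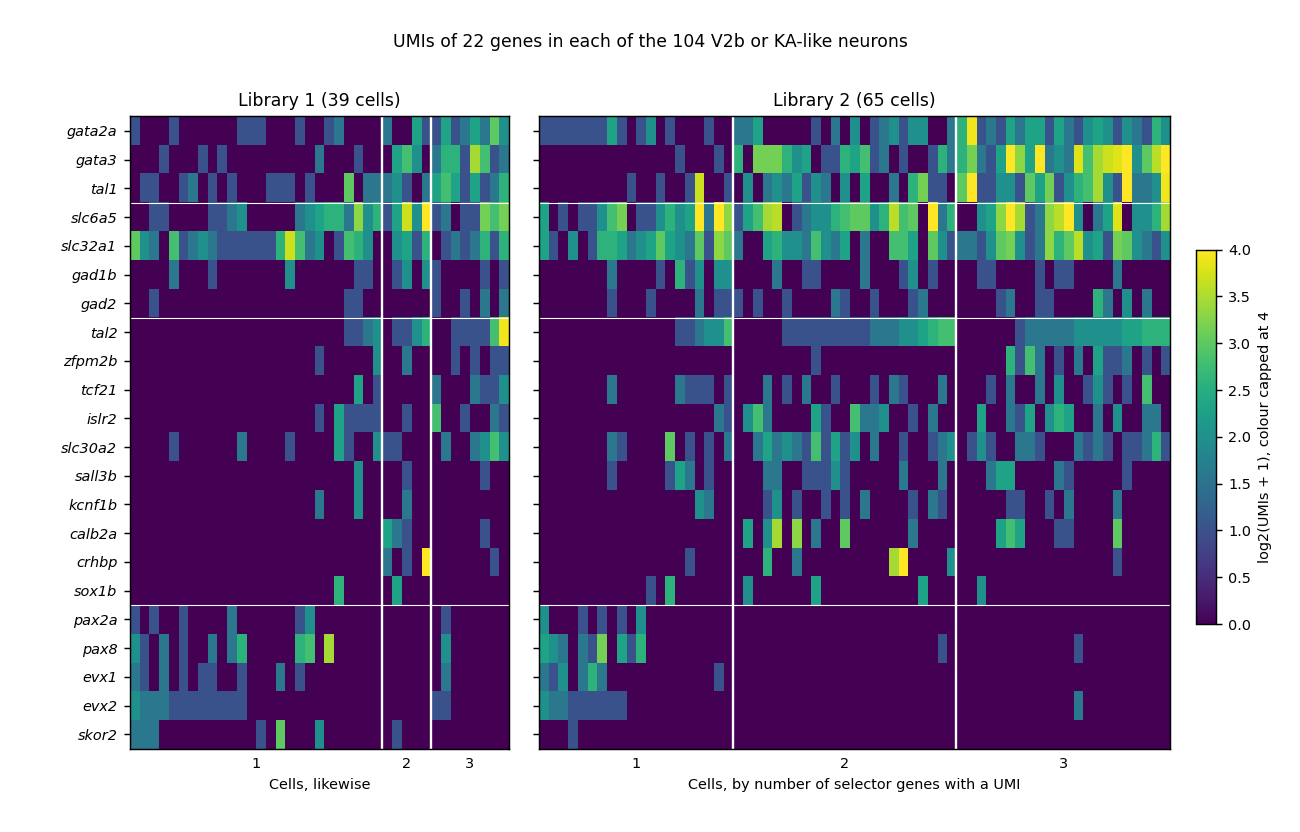
Each column is 1 of the 104 V2b or KA-like neurons, ordered within each library by how many of *gata2a*, *gata3* and *tal1* it held, each row is a gene, and colour is log2(UMIs + 1), capped at 4. Over both libraries, cells with *tal2*, *tcf21*, *islr2* or *slc30a2* mostly held 2 or 3 selector genes, and those with *pax2a*, *pax8*, *evx1* or *evx2* mostly held 1. In library 1 alone, *islr2* was found in 6 cells with 1 selector gene and 5 with more, and *slc30a2* in 6 and 7.

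The nearest neighbours of each member in expression space were searched without the rule genes and without the listed genes. On average 7.86% of the 15 nearest neighbours of a library 1 member were themselves members, and 37.6% in library 2, whereas members were 1.195% and 2.02% of the neurons searched. At least 1 of the 15 neighbours was a member for 21 of 39 members in library 1 and 53 of 65 in library 2. Members with *tal2* had 16.7% and 45.8% of their neighbours among members, and members without it had 2.93% and 24.5%. Excitatory V0v-like neurons were 6.67% and 3.67% of the neighbours of members with *tal2*, and 16.5% and 12.5% of the neighbours of those without. They were 16.3% and 20.4% of the neurons searched, so neither part of the members had clearly more V0v-like neighbours than that share. For comparison, V1-like neurons (selected by *en1b*) had 22.8% and 62.2% of their neighbours in their own class, so neighbour shares were lower in library 1 for both classes.

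**Figure D2:**
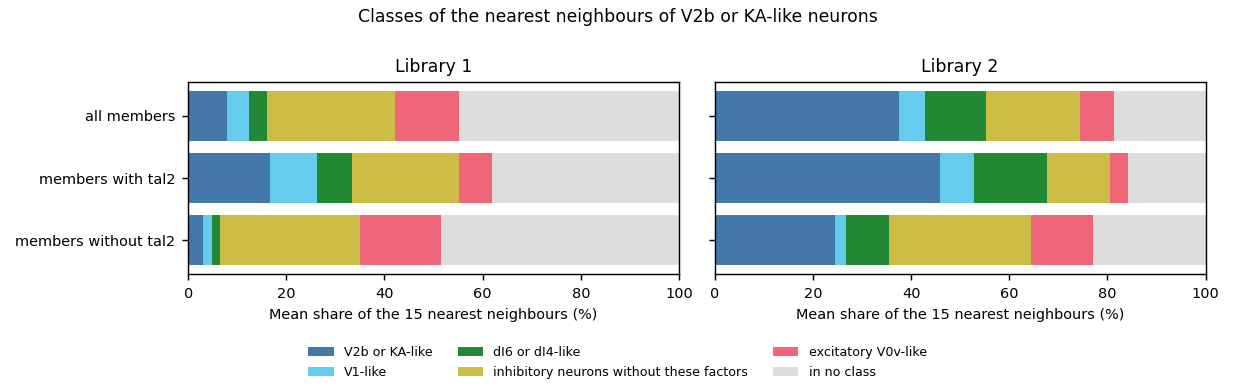
Bars give the mean share (%) of the 15 nearest neighbours that fell in each class, for all members and for members with and without *tal2*, in each library. Members with *tal2* had 16.7% and 45.8% of their neighbours among other members, and members without it 2.93% and 24.5%.

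Most members carried a gene of glycinergic neurons. *slc6a5*, the glycine transporter of glycinergic terminals, was detected in 27 of 39 members in library 1 and 56 of 65 in library 2. It occurred without a *gad* gene, which makes GABA, in 15 and 24 members, and together with *gad1b* or *gad2* in 12 and 32. A *gad* gene without *slc6a5* was found in 2 and 3 members. The remaining 10 and 6 members entered through *slc32a1* alone, the vesicular transporter that loads both GABA and glycine. Excitatory V0v cells of these libraries also hold *slc32a1*, so it does not by itself mark these cells as inhibitory. *tal2* was present in 9 of 12 and 22 of 32 members with *slc6a5* and a *gad* gene, and in 1 of 10 and 1 of 6 members with *slc32a1* alone. *evx2* was present in 5 of these 10 and 2 of these 6 cells. The shares of transmitter genes follow partly from the rule, which required 1 of them.

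Among the genes of KA neurons *tal2* was common and the others were rare. *tal2* was detected in 14 and 40 members. Of these, 13 and 36 also held *slc6a5*, beside 14 of 25 and 20 of 25 members without *tal2*. *pkd2l1* was detected in 1 and 2 members, its partner gene *pkd1l2a* in 0 and 1, and the somatostatin gene *sst1.1* in 1 and 1. The urotensin-related genes *urp1* and *urp2* were found in 0 of 104 members, which allows a share of up to 2.88%. A single library 2 cell had most of these transcripts. It held 96 UMIs of *sst1.1*, 8 of *pkd1l2a*, 7 of *pkd2l1*, 8 of *tal1*, 4 of *tal2* and 2 of *gad2* among 2967 UMIs, and none of *slc6a5*. This cell was singled out after its values were seen. On the V2 side, *sox1b*, which V2b neurons are known to express, was detected in 2 and 6 members and *sox14* in 1 and 3. *foxn4*, a gene of V2 progenitors, was detected in 0 of 104. The 14 genes of the KA list summed to 292 and 798 CPM in members, of which *tal2* made up 250 and 374 CPM, and to 12.8 to 111 CPM in the other neuron classes. Apart from *tal2*, the name V2b or KA-like rests on the selector and transmitter genes that the rule used.

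Expression was compared between the summed members and 4 other classes of neuron from the same libraries, with edgeR's quasi-likelihood test on class with library as a block. The classes were 145 V1-like neurons, 235 dI6 or dI4-like neurons (*dmrt3a* or *lbx1a*), 1626 inhibitory neurons with none of the 6 factors and 1190 excitatory V0v-like neurons (*evx2* with a vesicular glutamate transporter gene and no *slc6a5* or *gad*). The inhibitory rule was not the same in all classes. *slc32a1* alone admitted members, V1-like and dI6 or dI4-like neurons, whereas the other inhibitory neurons needed *slc6a5* or a *gad* gene. Against V1-like neurons, 245 of 7445 genes (3.29%) passed an adjusted p of 0.05, 121 higher (1.63%) and 124 lower (1.67%) in the members. Against dI6 or dI4-like neurons 215 genes passed (2.89%, with 141 or 1.89% higher and 74 or 0.994% lower), against the other inhibitory neurons 372 (5%, with 283 or 3.8% higher and 89 or 1.2% lower), and against V0v-like neurons 527 of 7442 (7.08%, with 357 or 4.8% higher and 170 or 2.28% lower). Without the library block these counts were 96, 42, 139 and 214. The 4 comparisons share the member cells and are not independent. Genes of the rule were not tested. The shares over all tested genes given here are the background for the counts of listed genes below.

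*tal2* stood out from all 4 classes. Its level was 250 CPM in the library 1 members and 374 CPM in the library 2 members. It was 0 and 2.53 CPM in V1-like neurons, 0 and 7.80 CPM in dI6 or dI4-like neurons, 1.69 and 2.98 CPM in the other inhibitory neurons, and 3.84 and 4.3 CPM in V0v-like neurons. Each class had 1 sum per library, and that of the members was the highest in both libraries. Of single member cells, 54 of 104 held *tal2*. The edgeR log2 fold change was 7.51 ± 0.58 (SE, adjusted p = 3.9e-08) against V1-like neurons, where a single UMI was counted, and the raw ratio was 181 (exact 95% interval 32.0 to 7202). Against dI6 or dI4-like neurons it was 5.83 ± 0.41 (adjusted p = 1.3e-08), against the other inhibitory neurons 7.05 ± 0.32 (adjusted p = 2.4e-12) and against V0v-like neurons 6.32 ± 0.30 (adjusted p = 2.2e-12). Each of these calls held under 9 of 9 alternatives. After thinning each cell to 2000 UMIs, *tal2* was detected in 25.0% and 44.6% of members (mean 34.8% ± 13.9, n = 2), compared with 0.526% ± 0.744 of V1-like neurons, 0.867% ± 1.23 of dI6 or dI4-like neurons, 0.325% ± 0.115 of the other inhibitory neurons, 0.705% ± 0.730 of V0v-like neurons and 0 of the fibroblast-like cells. Unthinned shares in members were 35.9% and 61.5%.

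The cofactor gene *zfpm2b* was also higher in the members than in every class, at 60.9 and 98.0 CPM in the members and at most 5.07 CPM elsewhere. Its edgeR log2 fold changes were 4.64 ± 0.90 (adjusted p = 0.0036), 4.88 ± 0.82 (0.0011), 5.09 ± 0.60 (6.9e-06) and 4.99 ± 0.60 (7.0e-06) against the V1-like, dI6 or dI4-like, other inhibitory and V0v-like neurons, and all 4 calls held under 9 of 9 alternatives. Its paralogue *zfpm2a* had 18.3 and 21.0 CPM in members and at most 2.53 CPM elsewhere, but did not pass the test, with adjusted p from 0.051 to 0.45. Of the 20 tested genes that work with GATA and TAL factors, 2 were higher and 2 lower than in V1-like neurons, 3 and 2 against dI6 or dI4-like neurons, 3 and 1 against the other inhibitory neurons, and 5 and 0 against V0v-like neurons. The median log2 fold change of the list was 0.65, 0.02, 0.16 and 0.46, beside 0.00, -0.00, -0.01 and -0.01 over all tested genes. The LIM-only genes, which bridge TAL and GATA complexes in blood, differed in direction. *lmo2* had 73.0 and 70.0 CPM in members and 62.5 to 104 CPM elsewhere. *lmo4a* was higher than in dI6 or dI4-like neurons (log2 fold change 3.15 ± 0.85, edgeR adjusted p = 0.046), a call that 4 alternatives ended. *lmo1* was lower than in dI6 or dI4-like neurons (-2.46 ± 0.44, adjusted p = 0.0021) and the other inhibitory neurons (-2.06 ± 0.42, adjusted p = 0.0036).

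**Figure D3:**
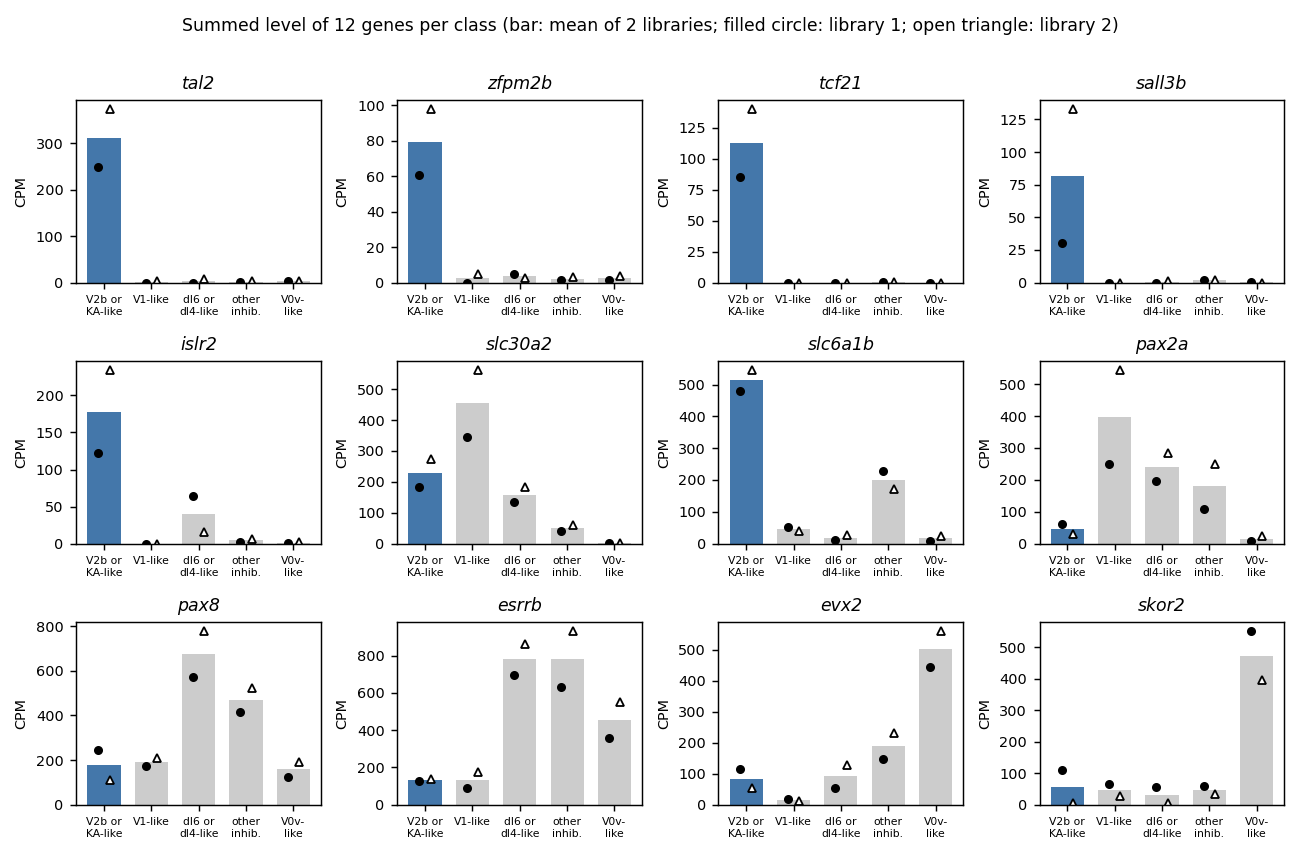
Summed CPM of 12 genes in each class, with bars for the mean of 2 libraries, circles for library 1 and triangles for library 2 ("other inhib." are inhibitory neurons with none of the 6 factors). *tal2* stood at 250 and 374 CPM and *tcf21* at 85.2 and 140 CPM in the members and near 0 elsewhere, while *pax2a*, *pax8* and *esrrb* were higher in other inhibitory classes.

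Several genes outside the GATA and TAL network were nearly confined to the members among these classes. *tcf21* had 14 UMIs in 7 members of library 1 (85.2 CPM) and 40 UMIs in 23 members of library 2 (140 CPM). It had no UMI in V1-like, dI6 or dI4-like and V0v-like neurons, so that its level was at least 22-fold, 38.8-fold and 224-fold higher against a floor of 3 counts over both libraries of each class, and it was 266-fold higher (exact 95% interval 86.4 to 1331) than the 3 UMIs of the other inhibitory neurons. *kcnf1b*, which encodes a potassium channel subunit, had 42.6 and 87.5 CPM in members and 1 UMI in all other classes together. *sall3b*, a spalt-like zinc finger gene, had 30.4 and 133 CPM in members and at most 2.36 CPM elsewhere. *islr2* had 122 and 234 CPM in members, none in V1-like neurons (at least 35.5-fold higher), and 64.3 and 15.6 CPM in dI6 or dI4-like neurons, where the log2 fold change was 2.84 ± 0.52 (edgeR adjusted p = 0.0035). Under edgeR *tcf21* passed against all 4 classes (largest adjusted p = 0.0012), as did *kcnf1b* (0.017) and *sall3b* (0.0035). DESeq2's Wald test, an alternative, ended the calls of *tcf21* (adjusted p from 0.23 to 0.66) and *kcnf1b* (from 0.30 to 0.73) in all 4 comparisons, with the direction kept.

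Other leading genes rested on few cells. *crhbp*, which encodes the binding protein of corticotropin-releasing hormone, had 250 and 238 CPM in members and at most 5.07 CPM elsewhere, and edgeR called it against all 4 classes (log2 fold change 6.12 ± 0.76, adjusted p = 5.5e-05 against V1-like neurons). It was found in 4 and 7 members, and a single cell held 37 of its 41 UMIs in library 1 and another 46 of its 68 in library 2. DESeq2 ended the call in all 4 comparisons (adjusted p from 0.15 to 0.71). *sox1b* had 54.8 and 70.0 CPM from 2 and 6 members and at most 0.812 CPM elsewhere, and edgeR called it in all 4 comparisons (largest adjusted p = 0.027). *INSM2*, a zinc finger gene of neuroendocrine cells, was found in 9 and 5 members (73.0 and 42.0 CPM) and at most 0.853 CPM elsewhere, with a largest edgeR adjusted p of 0.033. Of 8 alternatives, 2 ended the call of *sox1b* against V1-like and 2 against dI6 or dI4-like neurons (adjusted p up to 0.10), and 2 and 3 ended that of *INSM2* (up to 0.13). *sox1b* and *tcf21* were never seen in the same member (0 of 104).

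A further set of genes passed the test in some comparisons and not in others, and the differences between comparisons were not tested. *calb2a* was higher than in the other inhibitory neurons (48.7 and 210 against 1.35 and 0.271 CPM, log2 fold change 7.45 ± 0.57, edgeR adjusted p = 1.9e-08) and V0v-like neurons (5.34 ± 0.47, adjusted p = 8.2e-08). Against V1-like neurons it was 1.28 ± 0.43 (adjusted p = 0.14) and against dI6 or dI4-like neurons 0.91 ± 0.38 (adjusted p = 0.25). *cacna2d3*, a calcium channel subunit gene, had 134 and 143 CPM in members and no UMI in V0v-like neurons, at least 261-fold higher, but 186 and 195 CPM in V1-like neurons. *slc30a2* was higher than in V0v-like neurons (6.78 ± 0.32, adjusted p = 1.9e-12) and the other inhibitory neurons (2.23 ± 0.20, adjusted p = 1.9e-07) and lower than in V1-like neurons (-0.98 ± 0.18, adjusted p = 0.0024). *znf385c*, which encodes a zinc finger protein, was higher than in V0v-like neurons (5.78 ± 0.36, adjusted p = 2.0e-10), with adjusted p from 0.15 to 0.74 in the other comparisons.

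Genes named as lower in the members included some that were abundant in the class compared. Against V1-like neurons the forkhead gene *foxd3* had 0 and 7.0 CPM in members and 646 and 811 CPM in V1-like neurons, 172-fold lower in the members by raw counts (exact 95% interval 47.3 to 1425), with an edgeR adjusted p of 8.4e-10. The RNA-editing family gene *adarb2* had 1 UMI in members and 149 in V1-like neurons, 122-fold lower (21.5 to 4841). The enkephalin precursor gene *penkb* had 0 and 17.5 CPM in members and 3188 and 347 CPM in V1-like neurons (log2 fold change -6.77 ± 0.89, adjusted p = 6.3e-05). The serotonin receptor gene *htr1aa* had no UMI in members and 51 in V1-like neurons, at least 13.9-fold lower. Against dI6 or dI4-like neurons *dmrt2a* had no UMI in members and 98.9 and 129 CPM in that class, at least 18.4-fold lower (edgeR adjusted p = 0.00028; DESeq2 ended the call, adjusted p = 0.67). *nkx1.2la*, a homeobox gene of the KA list, had 0 and 10.5 CPM in members and 74.1 and 78.0 CPM there (-3.50 ± 0.86, edgeR adjusted p = 0.029), a call that 4 alternatives ended. Of the 3 tested genes of the KA list, 1 was higher and 1 lower than in dI6 or dI4-like neurons. In each of the other comparisons 1 was higher and 0 lower. The higher gene was *tal2* each time.

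The estrogen-related receptor gene *esrrb* was lower than in dI6 or dI4-like neurons (-2.56 ± 0.18, edgeR adjusted p = 1.3e-08), the other inhibitory neurons (-2.56 ± 0.17, 2.6e-09) and V0v-like neurons (-1.76 ± 0.18, 9.7e-07). It had 128 and 136 CPM in members, 89.6 and 175 CPM in V1-like neurons and 357 to 933 CPM in the other classes. The nuclear receptor gene *nr5a2* was lower than in V1-like neurons (-3.32 ± 0.42, adjusted p = 3.8e-05), the other inhibitory neurons (-2.65 ± 0.40, 0.00015) and V0v-like neurons (-4.0 ± 0.34, 5.2e-08), at 24.3 and 17.5 CPM in members and 285 and 353 CPM in V0v-like neurons. *esrrb* occurred in 8 of the 58 members with several selector genes and 16 of the 46 with a single one.

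Transcription factor genes shared by many inhibitory interneurons passed the test in both directions. Of 11 tested genes of this list, 4 were lower and 0 higher than in V1-like neurons, 5 and 0 against dI6 or dI4-like neurons, 5 and 1 against the other inhibitory neurons, and 1 and 2 against V0v-like neurons. Its median log2 fold change was -0.23, -0.64, -0.71 and -0.22. *pax2a*, a paired-box factor gene, had 60.9 and 31.5 CPM in members, 250 and 545 CPM in V1-like, 198 and 285 CPM in dI6 or dI4-like and 108 and 250 CPM in the other inhibitory neurons. Both members' sums lay below those of the 3 inhibitory classes. The log2 fold changes were -3.32 ± 0.33 (edgeR adjusted p = 2.0e-06), -2.52 ± 0.35 (0.00017) and -2.13 ± 0.34 (0.00026). The second and the third of these calls were lost without the library block (adjusted p = 0.11 and 0.16), and the third also without upper limits of UMIs and genes (0.063). Its relative *pax8* was lower than in dI6 or dI4-like neurons (-2.08 ± 0.24, adjusted p = 1.5e-05) and the other inhibitory neurons (-1.52 ± 0.23, 0.00016), and was -0.22 ± 0.31 against V1-like neurons (0.85). The LIM homeobox gene *lhx1a* was detected in 34 of 39 and 51 of 65 members, at 657 and 805 CPM, and was slightly lower than in dI6 or dI4-like neurons (-0.55 ± 0.13, adjusted p = 0.017) and the other inhibitory neurons (-0.71 ± 0.12, 0.00042). Of 9 alternatives, 4 ended the first of these calls (adjusted p up to 0.40) and 2 the second (up to 0.20). Its relative *lhx1b* was higher than in V0v-like neurons (2.02 ± 0.36, adjusted p = 0.00061) and the other inhibitory neurons (1.12 ± 0.32, 0.045), where 4 of 9 alternatives ended the call (adjusted p up to 0.20).

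When the members with any UMI of *evx1*, *evx2*, *slc17a6a* or *slc17a6b* were left out, an alternative chosen after seeing the data, 21 and 52 members remained. The log2 fold change of *pax2a* then was -4.43 against V1-like, -3.62 against dI6 or dI4-like and -3.24 against the other inhibitory neurons, and that of *pax8* against dI6 or dI4-like and the other inhibitory neurons was -3.17 and -2.61. *esrrb* was at -4.15 against the other inhibitory neurons. *tal2* was at 8.07, 6.35, 7.69 and 6.95 in the 4 comparisons. These differences were larger, in the same direction, but only members were left out, while the 3 inhibitory classes kept cells with such UMIs. Of the members with *pax2a*, *pax8* and *esrrb*, 9 of 12, 16 of 22 and 13 of 24 held *evx2*, and of those with *tal2* 1 of 54. The shifts therefore follow at least partly from the choice of cells and are no separate evidence.

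Another list held *hmx2*, *hmx3a*, *znf385a*, *znf385c*, *bhlhe22* and *irx1a*, which the study picked from these libraries, with *pax2a* and *slc6a1b*, so that its counts are not independent evidence. Of the 8 tested genes, 3 were lower and 1 higher than in V1-like neurons, 2 and 1 against dI6 or dI4-like neurons, 5 and 1 against the other inhibitory neurons, and 0 lower and 5 higher against V0v-like neurons. The homeobox gene *hmx3a* had 66.9 and 21.0 CPM in members, 243 and 373 CPM in V1-like and 196 and 180 CPM in the other inhibitory neurons (log2 fold changes -3.10 ± 0.36, edgeR adjusted p = 1.5e-05, and -2.25 ± 0.35, 0.00021). Its neighbour in function *hmx2* was detected in 5 members of library 1 and in none of library 2. *otpa*, an orthopedia homeobox gene outside this list, was higher than in V1-like neurons (2.5 ± 0.38, edgeR adjusted p = 0.00026). That call held under 7 of 9 alternatives, with an adjusted p of up to 0.84 and a log2 fold change down to 0.38. The members without *evx* or glutamate transporter UMIs were among the alternatives that ended it (adjusted p = 0.059). *otpa* was lower than in the other inhibitory neurons (-1.80 ± 0.26, edgeR adjusted p = 7.1e-05), which held under 7 of 9 alternatives (adjusted p up to 0.12).

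**Figure D4:**
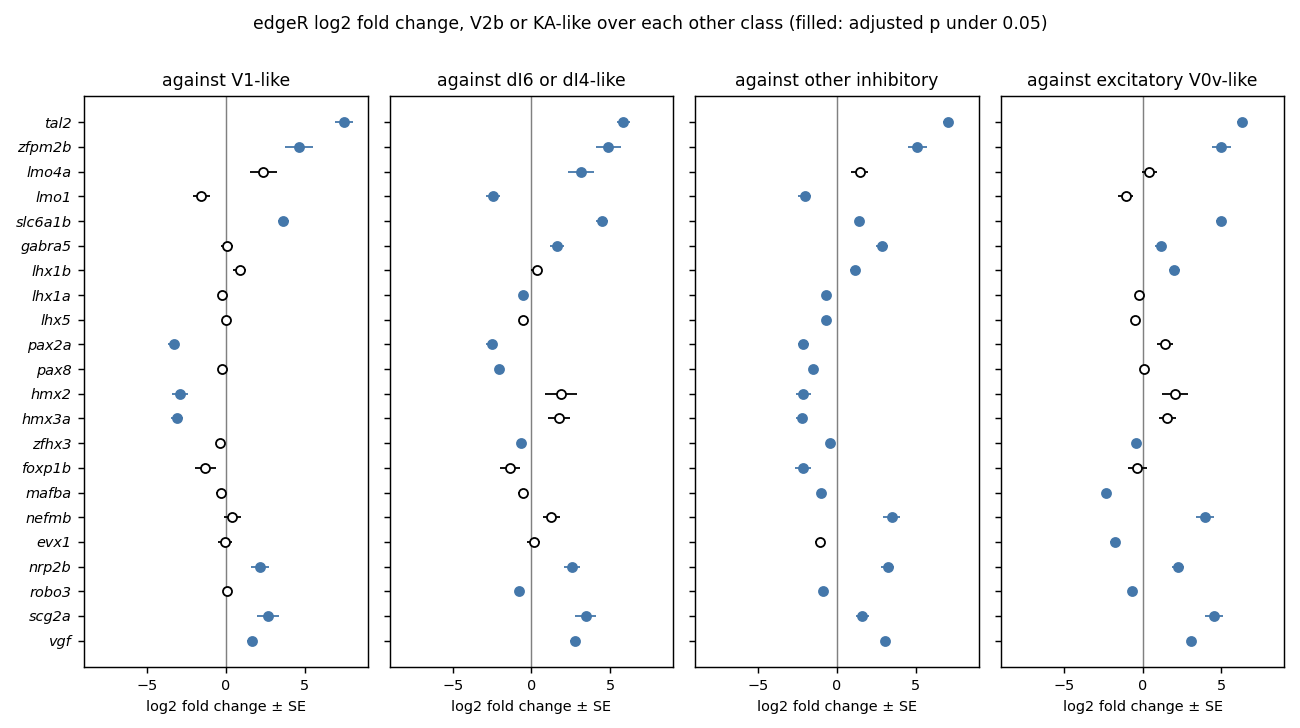
edgeR log2 fold changes (± SE) of 22 genes in the members over each of 4 classes, filled where the adjusted p was under 0.05 ("other inhibitory" are neurons with none of the 6 factors). *tal2* and *zfpm2b* lie to the right in every panel, and *pax2a* to the left in the 3 panels of inhibitory classes.

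The clearest difference among transmitter genes that the rule did not use was *slc6a1b*, a plasma membrane GABA transporter gene. It had 481 and 546 CPM in members, 51.2 and 38.0 CPM in V1-like, 9.89 and 27.3 CPM in dI6 or dI4-like, 230 and 173 CPM in the other inhibitory and 8.96 and 23.7 CPM in V0v-like neurons. The sum of the members was above that of every class compared, in both libraries. The study reports a large difference in *slc6a1b* between its mutant clusters. The other inhibitory neurons were not split by this gene here, so the members were not compared with the inhibitory neurons richest in it. The log2 fold changes were 3.65 ± 0.37 (edgeR adjusted p = 2.0e-06), 4.47 ± 0.36 (8.6e-08), 1.42 ± 0.21 (9.1e-05) and 4.96 ± 0.27 (2.3e-11), and each held under 9 of 9 alternatives. It was found in 36 of 54 members with *tal2* and 14 of 50 without. Of 13 tested genes of inhibitory synapses, 0 were higher and 2 lower against V1-like neurons, 1 and 0 against dI6 or dI4-like, 1 and 0 against the other inhibitory, and 1 and 1 against V0v-like neurons. The gene higher against the other inhibitory neurons was *gabra5*, a GABA-A receptor subunit gene (54.8 and 108 against 7.09 and 16.2 CPM, log2 fold change 2.87 ± 0.39, adjusted p = 4.8e-05). The glycine receptor gene *glra1* had 110 and 301 CPM in members, and its adjusted p was 0.16 to 0.99.

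Of 8 tested neuropeptide and granin genes, 2, 3, 3 and 3 were higher and 1, 1, 0 and 1 lower in the 4 comparisons, in the order used above. *vgf*, the precursor of several secreted peptides, was higher in each. It had 176 and 343 CPM in members, and its log2 fold changes were 1.66 ± 0.31 (edgeR adjusted p = 0.0024), 2.75 ± 0.32 (1.5e-05), 3.06 ± 0.25 (4.6e-08) and 3.08 ± 0.25 (2.9e-08). The first of these calls was lost without the library block (adjusted p = 0.075). The secretogranin gene *scg2a*, at 60.9 and 56.0 CPM, was also higher in each comparison, with adjusted p from 9.9e-06 to 0.035. Of 9 alternatives, 5 ended its call against V1-like neurons, 4 against the other inhibitory neurons (adjusted p up to 0.42) and 1 against dI6 or dI4-like neurons. The nociceptin precursor gene *pnoca* was higher than in dI6 or dI4-like neurons (3.79 ± 0.69, adjusted p = 0.0026) and V0v-like neurons (2.97 ± 0.46, 0.00018). It came from 5 and 5 members, 8 of them with a single selector gene, and its call was lost against both classes when members needed at least 2 selector UMIs (adjusted p = 0.18 and 0.81).

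Of 13 tested genes of V0v neurons, 3 were higher and 0 lower than in V1-like neurons, 1 and 0 against dI6 or dI4-like neurons, and 4 and 1 against the other inhibitory neurons. Of 10 tested against V0v-like neurons, 2 were higher and 2 lower. The 16 genes of the list summed to 1668 and 1967 CPM in members and to 2830 and 2808 CPM in V0v-like neurons. *evx2* had 116 and 52.5 CPM in members and 445 and 561 CPM in V0v-like neurons, where it was part of the rule. It was lower than in the other inhibitory neurons (-1.31 ± 0.30, edgeR adjusted p = 0.0090), a call that 3 of 9 alternatives ended (adjusted p up to 0.24), and 2.64 ± 0.64 higher than in V1-like neurons (0.021), a direction that turned to -7.19 when members with *evx* or glutamate transporter UMIs were left out. *evx1* was lower than in V0v-like neurons (-1.75 ± 0.29, adjusted p = 0.00037), as were the transcriptional corepressor gene *skor2* (110 and 3.50 CPM against 551 and 394 CPM, -3.36 ± 0.38, 3.9e-06) and the large Maf factor gene *mafba* (-2.31 ± 0.22, 2.1e-07). The neurofilament gene *nefmb* had 146 and 665 CPM in members and was higher than in the other inhibitory (3.47 ± 0.53, 0.00017) and V0v-like neurons (3.94 ± 0.56, 5.5e-05), though DESeq2 gave an adjusted p of 0.083 for the former. *nefma* had 79.1 CPM in library 1 members and 318 CPM in library 2 members. Against the other inhibitory neurons (88.4 and 61.7 CPM) it passed the test (1.69 ± 0.39, adjusted p = 0.010) with opposite signs in the 2 libraries, and 3 of 9 alternatives ended the call.

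Of 34 tested genes of axon guidance, 3 were higher and 2 lower against V1-like neurons, 3 and 2 against dI6 or dI4-like neurons, 5 and 2 against the other inhibitory neurons, and 4 and 2 against V0v-like neurons. Over all tested genes 1.63%, 1.89%, 3.8% and 4.8% were higher and 1.67%, 0.994%, 1.2% and 2.28% lower in these comparisons. The semaphorin receptor gene *nrp2b* had 36.5 and 105 CPM in members and was higher in each comparison, with log2 fold changes from 2.16 ± 0.55 (edgeR adjusted p = 0.030, V1-like) to 3.21 ± 0.43 (3.2e-05, other inhibitory). The first call was lost with DESeq2 (adjusted p = 0.10) and without the block (0.12). *plxna4*, which encodes its plexin partner, was higher than in the other inhibitory (3.64 ± 0.40, adjusted p = 3.3e-06) and V0v-like neurons (2.74 ± 0.37, 3.2e-05) and was 0.36 ± 0.38 (0.78) and -0.68 ± 0.30 (0.30) against the V1-like and dI6 or dI4-like neurons. *robo3*, a midline guidance receptor gene known from commissural neurons, was lower than in the dI6 or dI4-like (-0.77 ± 0.20, 0.036), other inhibitory (-0.88 ± 0.18, 0.0033) and V0v-like neurons (-0.70 ± 0.18, 0.018), and none of these calls held without the library block (adjusted p from 0.14 to 0.26).

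Of 10 tested Notch genes, 0, 2, 1 and 2 were higher and 1, 1, 0 and 0 lower in the 4 comparisons, in the order used above. Among them *her15.1*, a target of Notch signalling, had 329 and 882 CPM in members and was higher than in dI6 or dI4-like (1.62 ± 0.18, edgeR adjusted p = 1.3e-05), other inhibitory (2.58 ± 0.16, 9.7e-10) and V0v-like neurons (3.26 ± 0.17, 1.1e-11), and at 0.03 ± 0.17 (0.97) against V1-like neurons. The gene lower than in V1-like and dI6 or dI4-like neurons was *her4.2*. It had 1 UMI in members and 62 in dI6 or dI4-like neurons (-4.685 ± 1.147, edgeR adjusted p = 0.025). These calls held under 3 and 4 of 9 alternatives. Of 15 general neuronal genes, 0 were higher and 8 lower than in V0v-like neurons, with a median of -0.45, among them *gap43*, a growth cone gene (1211 and 882 against 2419 and 2133 CPM, -1.09 ± 0.10, adjusted p = 1.7e-07). Against V1-like neurons *gap43* was higher (1.27 ± 0.13, 2.0e-06).

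Markers of other cell types summed to less in the members than the 16 neuron genes did (12726 and 11982 CPM). The 26 blood and endothelium genes, which include other users of GATA and TAL factors, summed to 128 CPM in library 1 (8 genes with a UMI) and 319 CPM in library 2 (5 genes), *gata1a* was at 0, and 0 of 4 tested genes passed in any comparison. The embryonic globin gene *hbae1.1* stood at 6.09 and 101.5 CPM in members and at 6.0 and 71.0 CPM in V0v-like neurons. Fibroblast genes summed to 183 and 52.5 CPM in members and to 1331 and 373 CPM in V1-like neurons, with 0 of 7 called in each comparison. The dI6 or dI4-like, other inhibitory and V0v-like neurons held less than the members in library 1 (4.94, 58.7 and 13.2 CPM). In library 2 they held more (229, 142 and 86.6 CPM). In library 1 *col1a1a*, *col1a1b* and *col1a2* were each found in 1 member. Epithelial genes summed to 140 and 290 CPM in members and to 69.2 to 250 and 130 to 195 CPM in the other neuron classes. Of 4 tested, *ca2* was higher than in the other inhibitory and V0v-like neurons. Notochord and muscle genes summed to 456 and 626 CPM in members, glial genes to 323 and 311 CPM and progenitor genes to 219 and 157 CPM. The other neuron classes held 445 to 592, 336 to 1070 and 86.2 to 390 CPM of these. Of 6 tested progenitor genes, *neurog1* was higher than in V0v-like neurons. Stress and immediate early genes summed to 30260 and 12630 CPM in members, 31659 and 10594 CPM in V1-like, 31194 and 11299 CPM in dI6 or dI4-like, 31157 and 10890 CPM in the other inhibitory and 27404 and 9926 CPM in V0v-like neurons. Of 28 tested, 2, 4, 10 and 9 were higher and 0, 0, 1 and 1 lower in the 4 comparisons. *gadd45ba*, a stress response gene, was among those higher in each (183 and 280 CPM, edgeR adjusted p from 6.2e-06 to 0.0088), a call lost in each without the library block. The part of these genes in the results above was not tested.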

How the data were processed

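The authors sorted EGFP-positive trunk cells from 48 h embryos after papain dissociation, fixed them in methanol, made 10x Genomics 3′ libraries and deposited 1 gene by cell matrix of UMI counts per library, made with Cell Ranger 4.0.0 per the submitters' processing notes and an annotation of the Lawson Lab. The deposited counts were used as they are. Cells with 500 to 2500 genes, at most 12000 UMIs and at most 6% mitochondrial UMIs were kept, which left 3571 and 4556 cells. No doublet caller was run, and the upper limits of genes and UMIs stood in for it. Classes were set by UMIs of the genes named in the text, since no cell annotation was used here. Fibroblast-like cells held at least 3 of a list of fibroblast genes.

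UMIs were summed per library and class where a sum held at least 20 cells. Sums were tested with edgeR 4.0.16 (R 4.3.3; TMM, its filter on low counts, quasi-likelihood test, class plus library), with Benjamini-Hochberg adjustment over all genes tested. Library was a block, since the classes of a library were handled together, so the paired fit is the main one. CPM is UMIs per 1000000 UMIs of the sum. Genes were named where the adjusted p was under 0.05, both libraries had the same sign and the 2 classes held at least 20 UMIs, as the 10 largest changes each way, along with genes of listed pathways and markers. Values of a named gene in the other comparisons are given beside it, and those were added after values were seen. The members and lists were chosen with earlier results of these data known. Neighbours were found with scanpy 1.11.5 in each library (2000 variable genes, without the rule and listed genes). DESeq2 1.42.0, other limits, thinning and fits without the block were alternatives. On simulated data, 4-fold changes were recovered for 85%, 88%, 92% and 89% of changed genes in the V1-like, dI6 or dI4-like, other inhibitory and V0v-like comparisons, and 2-fold changes for 14%, 18%, 24% and 22%. The changed genes were drawn only from those above a minimum expected count in the library 1 members. All genes were given the same spread, so these rates do not cover rare or more variable genes. Some items are not reported here. No sequences are shown, since no genome of the authors' annotation was used here.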

Additional observations from a re-analysis of the deposited data

How the results depend on the processing

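Counts of genes passing the threshold depended on the processing more than the direction of single genes did. Against V1-like, dI6 or dI4-like, other inhibitory and V0v-like neurons, 245, 215, 372 and 527 genes passed. Without the replicate block these were 96, 42, 139 and 214. With cells thinned to 2000 UMIs they were 138, 105, 224 and 306. Without upper limits of UMIs and genes they were 533, 102 and 222 for the first 3, and the share of calls higher in members fell from 49.4% to 26.3% against V1-like neurons. DESeq2 gave 141 against dI6 or dI4-like neurons, and its share of higher calls against V0v-like neurons was 79.0% instead of 67.7%. Without a filter on low counts the shares of higher calls were 60.0% instead of 76.1% against the other inhibitory and 51.8% instead of 67.7% against V0v-like neurons, while the median log2 fold change over all genes moved by -0.42 and -0.34. Members without *evx* or glutamate transporter UMIs, and members with at least 2 selector UMIs, were alternatives chosen after seeing the data. The first gave 427 against dI6 or dI4-like and 629 against the other inhibitory neurons.

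As means of the 2 libraries, 48.7% of members held *tal2*, and 70.7% of those with at least 2 selector UMIs. No member held *pkd2l1*, *pkd1l2a* or *sst1.1* without *tal2*. *slc6a5* was found in a mean of 77.7% of members, and in 94.0% where *slc32a1* alone admitted no cell. *tal2* was found in 34.8% of members thinned to 2000 UMIs, 18.2% at 1000 UMIs and 48.7% without thinning. Leaving out each library gave 25.0% to 44.6% for *tal2*, 1.195% to 2.02% for the members' share and 7.86% to 37.6% for neighbours that were members. The cause of these differences was not tested.

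Directions turned in few cases. With *evx* and glutamate transporter cells left out, *evx2* was at -7.19 against V1-like neurons, and *slc17a6b* at -3.66 and *evx1* at -9.49 against dI6 or dI4-like neurons, where the alternative removes these UMIs by construction. With at least 2 selector UMIs, *uncx* was at -0.75 against V1-like neurons and *nhlh2* at -0.0075, *otpb* at -2.29 and *pax8* at -3.16 against V0v-like neurons. *her4.2* was at 0.21 against dI6 or dI4-like neurons when *slc32a1* alone admitted no cell. Leaving out each library gave -0.16 to 2.35 for *nefma* against the other inhibitory neurons, and -0.12 to 1.04 for *ier2b* and -0.94 to 3.81 for *hspb1* against V0v-like neurons. Of 297 gene results, 261 had a call in the main fit. Of these 261, 141 lost their call without the block, 100 without upper limits and 71 with DESeq2. After thinning 245 of the 297 results could be fitted, and 56 calls were lost. Fits with 1 library have no residual degrees of freedom and gave no counts, the planned splits of the members by a KA gene or *slc6a5* held sums of under 20 cells and were not tested, and the planned fit with at least 2 selector UMIs and 20 cells per sum could not be run with 19 members in library 1. Only 14% to 24% of simulated 2-fold changes were recovered, and the simulation changed no rare genes, so it gives no rate for them.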

Other observations

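Cells that carried a selector gene outside the members were also present. Of the 83 and 165 cells past the quality limits with a UMI of *gata2a*, *gata3* or *tal1*, 17 and 72 had no *elavl3* UMI. A further 6 and 71 cells with a selector UMI lay above the upper limits of UMIs or genes and were left out. A single inhibitory neuron in library 2 held a selector gene with *en1b*, and none did so with *dmrt3a* or *lbx1a*. Of the neurons with a selector gene but no inhibitory transmitter gene and no other factor, 25 in library 1 and 27 in library 2, *tal2* was found in 2 and 1, and *evx2* in 5 and 3.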
